A study of Rattus norvegicus with 5 samples.

Results

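Major histocompatibility complex (MHC) class II genes and Cd74 were followed in rat parietal cortex 21 days after kaolin injection, a model of neonatal hydrocephalus. The set held 8 genes, Cd74, RT1-Da, RT1-Db1, RT1-Ba, RT1-Bb, RT1-DMa, RT1-DMb and Ciita, and was taken as every non-control probe whose gene name, or its current rat symbol, was one of them. This gave 12 of 41012 probes, for 7 of the 8 genes, on an array that carried 15174 official symbols; RT1-DMb had no matched probe. Mean signal was 1.84-fold for Cd74, 1.65-fold for RT1-Da and 1.56-fold for RT1-DMa in kaolin over saline cortex (n = 5 arrays), with the larger ratios on the same 3 arrays for each. RT1-Bb and RT1-Db1 had smaller means, Ciita and RT1-Ba were too dim to test, and no member passed once p-values were adjusted over all probes.

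The kaolin group was 5 samples of parietal cortex from rats injected with kaolin on postnatal day 1. The saline group was 5 such samples from sham rats given saline on the same day. Kaolin is a clay that obstructs the flow of cerebrospinal fluid. All cortex came from postnatal day 22 (post-kaolin day 21), and the pups had stayed with their dams until then. Strain, sex, the site of injection and whether a sample was 1 animal or a pool are not given in the labels, so p-values measure the spread between these samples. Each of 5 two-colour Agilent arrays carried 1 kaolin sample labelled with Cy3 and 1 saline sample labelled with Cy5. The dyes were never exchanged, so treatment and dye cannot be told apart.

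Class II molecules are pairs of an alpha and a beta chain that display peptides from endosomes to CD4 T cells. In the rat, RT1-Da and RT1-Db1 encode the chains of RT1-D, the counterpart of human HLA-DR, and RT1-Ba and RT1-Bb those of RT1-B, the counterpart of HLA-DQ. Cd74, the invariant chain, guides newly made class II pairs to endosomes and blocks their groove, and is also a receptor for the cytokine Mif. RT1-DMa and RT1-DMb form the DM molecule, which takes the last fragment of Cd74 out of the groove so that a peptide can bind. Ciita is the coactivator that turns these genes on; it binds no DNA itself and is held at their promoters by the RFX, NF-Y and CREB proteins. In brain, microglia and macrophages of the meninges and perivascular spaces are the cells best known for class II, and the amount in resting microglia is low.

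The promoters show what the members share in sequence, since RFX and CREB bind the X box and NF-Y the Y box of class II promoters. Promoter windows from RefSeq (build GRCr8, from 250 bases before to 50 after the start) were matched for 6 of the 8 genes. They were searched on both strands for an X-type core, ACNGATG, and a Y-type core, ATTGG, which reads CCAAT on the other strand. Both cores and their spacing were chosen after these sequences had been read, so the matches describe the sequences only, and the cores do not overlap. Capitals mark the matched cores in the 100-base windows, which are written 5′ to 3′ along the gene, with positions counted from the start.
RT1-Da (chr20:4515303-4515402, plus strand, -112 to -13): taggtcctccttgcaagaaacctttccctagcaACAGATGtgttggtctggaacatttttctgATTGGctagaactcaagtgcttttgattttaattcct
RT1-Db1 (chr20:4560193-4560292, minus strand, -130 to -31): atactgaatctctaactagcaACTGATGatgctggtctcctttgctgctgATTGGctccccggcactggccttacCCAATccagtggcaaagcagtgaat
RT1-Bb (chr20:4604143-4604242, minus strand, -124 to -25): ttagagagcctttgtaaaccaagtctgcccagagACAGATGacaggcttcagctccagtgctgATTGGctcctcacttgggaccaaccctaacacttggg
RT1-DMa (chr20:4712348-4712447, minus strand, -112 to -13): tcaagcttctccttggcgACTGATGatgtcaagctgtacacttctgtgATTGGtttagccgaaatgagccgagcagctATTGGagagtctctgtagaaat
RT1-Ba (chr20:4576957-4577056, plus strand, -100 to -1): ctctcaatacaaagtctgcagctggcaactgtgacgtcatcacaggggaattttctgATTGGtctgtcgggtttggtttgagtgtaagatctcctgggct
Cd74 (chr18:56526969-56527068, plus strand, -237 to -138): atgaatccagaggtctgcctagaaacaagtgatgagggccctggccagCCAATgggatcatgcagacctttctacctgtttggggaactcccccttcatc

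In RT1-Da, RT1-Db1, RT1-Bb and RT1-DMa, ACNGATG was followed on the same strand by ATTGG, with first bases 25 to 35 apart. RT1-Da held ACAGATG at -79 and ATTGG at -49, and RT1-DMa held ACTGATG at -94 and ATTGG at -64. This spaced pair stood in 28 of 33469 promoters of the same length, or 0.0837% of them. Singly the cores were common, ACNGATG in 10.2% and ATTGG in 37.5% of promoters. RT1-Ba and Cd74 held a Y-type core and no ACNGATG in these 300 bases, which says only that those letters were not in the window.

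On each array the kaolin signal was divided by the saline signal and expressed in log2, so that 1 unit is a doubling. Channel levels are normalized log2 intensity, read within a probe and not between probes. Tested were probes with signal well above background, in either channel, on 3 or more of the 5 arrays, which 7 of the 12 probes passed, for Cd74, RT1-Da (2 probes), RT1-Db1 (2 probes), RT1-Bb and RT1-DMa. The remaining 5 probes are given further on. Where a gene had 2 tested probes, the brighter one is given first.

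Cd74 lies on chromosome 18, and its 1 probe (A_44_P549494) at chr18:56765468-56765527 of rn4, plus strand. Gene models of rn4 were not used here, and no probe is assigned to an exon or UTR. Its level was 7.65, 7.92, 9.97, 8.92 and 8.76 in the kaolin samples of replicates 1 to 5, against 7.97, 7.54, 8.04, 7.71 and 7.57 in their saline samples. The kaolin samples of replicates 3, 4 and 5 lay above every saline sample, while those of replicates 1 and 2 lay within the saline range. The kaolin levels spread over 2.32 units and the saline levels over 0.50. The log2 ratios were -0.31, 0.37, 1.93, 1.21 and 1.19, with a mean of 0.88 ± 0.87 (SD, n = 5), or 1.84-fold (95% interval 0.17 to 1.59 on the log2 scale). In limma, fitted over all 29106 tested probes, this mean had an adjusted p of 0.243 and did not pass the threshold of 0.05. In bulk cortex, a difference in the number of cells of a type and one in RNA per cell cannot be told apart. Within the arrays, the Cd74 ratio stood at the 16.2, 95.9, 99.5, 99.2 and 98.7 percentiles of tested probes on replicates 1 to 5. It was therefore among the higher ratios on 4 arrays and among the lower ones on replicate 1.

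**Figure D1:**
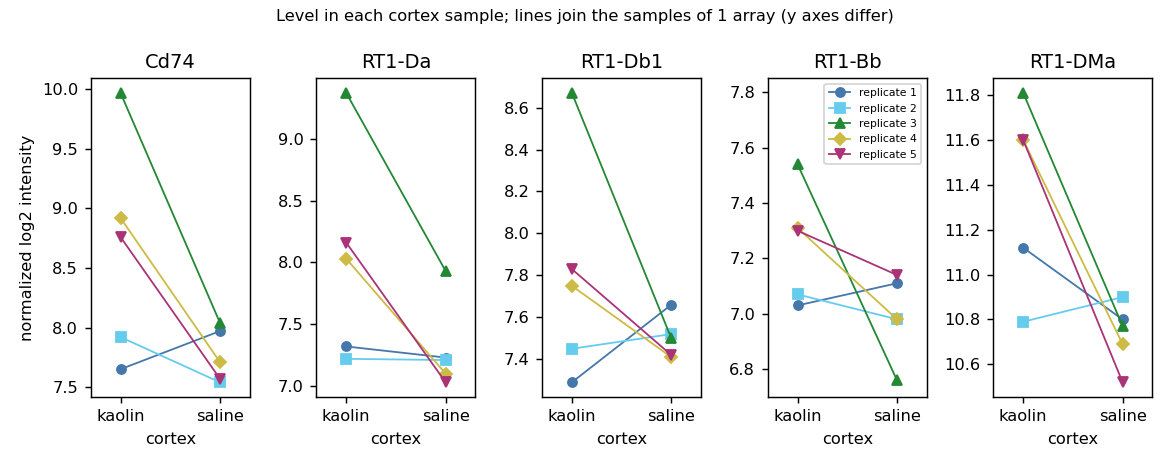
Normalized log2 intensity (y axis, a separate scale in each panel) of the brightest tested probe of 5 genes in kaolin (left) and saline (right) cortex; each line joins the 2 samples of 1 array. In each panel the kaolin sample of replicate 3 is the highest of the 10 samples.

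RT1-Da, the alpha chain of RT1-D, was read by 2 probes on chromosome 20 of rn4, plus strand, at chr20:4641104-4641163 (A_44_P991532, the brighter) and chr20:4638704-4638763 (A_44_P367688). The brighter probe had levels of 7.32, 7.22, 9.37, 8.03 and 8.16 in kaolin cortex and 7.23, 7.21, 7.93, 7.10 and 7.03 in saline cortex. Replicate 3 was the highest array in both groups for this probe, and its kaolin sample still stood above its saline sample. The ratios were 0.08, 0.01, 1.44, 0.94 and 1.13, with a mean of 0.72 ± 0.64 (SD, n = 5), or 1.65-fold (95% interval 0.19 to 1.25; limma adjusted p = 0.243). Its ratio was above 0 on 5 of 5 arrays, though on replicates 1 and 2 it lay near 0. The dimmer probe gave -0.19, 0.23, 1.43, 0.70 and 0.83, with a mean of 0.60 ± 0.62 (limma adjusted p = 0.246), and its saline signal was well above background on 2 of 5 arrays. Both probes had 3 kaolin samples above the highest saline sample, those of replicates 3, 4 and 5.

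RT1-Db1, the beta chain of RT1-D, had 2 tested probes on the minus strand of chromosome 20, at chr20:4672677-4672736 (A_44_P130513, the brighter) and chr20:4673410-4673469 (A_44_P130516) of rn4. The brighter had levels of 7.29, 7.45, 8.67, 7.75 and 7.83 in kaolin cortex and 7.66, 7.52, 7.50, 7.41 and 7.42 in saline cortex. The kaolin sample of replicate 1 was below every saline sample, while replicates 3, 4 and 5 were above every one. Its ratios were -0.37, -0.08, 1.17, 0.34 and 0.41, with a mean of 0.29 ± 0.58 (SD, n = 5; limma adjusted p = 0.449). The other probe gave 0.05, -0.05, 1.36, 0.52 and 0.29, with a mean of 0.43 ± 0.56 (limma adjusted p = 0.296). Replicate 3 had the largest ratio at both probes, and without it the mean of the brighter probe was 0.08. RT1-Db1 has close relatives in the same cluster, and how far its probes tell them apart was not tested.

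The ratio of the alpha chain was above that of the beta chain of RT1-D on each array at the brighter probes. The differences were 0.46, 0.09, 0.28, 0.60 and 0.72 on replicates 1 to 5, with a mean of 0.43 ± 0.25 (SD, n = 5). An exact two-sided sign-flip permutation test gave p = 0.0625, the smallest value 5 arrays allow, and 0.0833 after adjustment over the 4 pairs of probes. The mean was 0.29 and 0.31 for 2 further pairs of probes, each above 0 on 5 of 5 arrays. For the 2 dimmer probes it was 0.17, above 0 on 4 of 5 (exact permutation p = 0.25). This comparison was chosen after the ratios had been seen.

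RT1-Bb, the beta chain of RT1-B, had 1 tested probe (A_44_P500803), on the minus strand at chr20:4732962-4733021 of rn4. Its levels were 7.03, 7.07, 7.54, 7.31 and 7.30 in kaolin cortex and 7.11, 6.98, 6.76, 6.98 and 7.14 in saline cortex. The kaolin samples of replicates 3, 4 and 5 lay above the highest saline sample, by small margins on replicates 4 and 5. The ratios were -0.09, 0.09, 0.78, 0.33 and 0.16, with a mean of 0.25 ± 0.33 (SD, n = 5; limma adjusted p = 0.320). Its mean over the 5 arrays was the smallest of the 5 tested genes. Without replicate 3 it was 0.12, above the 0.08 of RT1-Db1. The order of these 2 genes also turned under some other settings, so it depends on the processing.

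RT1-DMa, the alpha chain of the DM molecule, was read by 1 probe (A_42_P473314), which the array names Hla-dma, on the minus strand at chr20:4843704-4844066 of rn4. Its levels were 11.12, 10.79, 11.81, 11.60 and 11.60 in kaolin cortex and 10.80, 10.90, 10.77, 10.69 and 10.52 in saline cortex. In 4 of 5 kaolin samples it lay above every saline sample, and the kaolin sample of replicate 2 lay within the saline range. The ratios were 0.32, -0.11, 1.03, 0.91 and 1.08, with a mean of 0.65 ± 0.52 (SD, n = 5), or 1.56-fold (95% interval 0.20 to 1.09; limma adjusted p = 0.243). Unlike Cd74, RT1-DMa had a positive ratio on replicate 1, at the 85.3 percentile of tested probes, and a negative one on replicate 2, at the 28.2 percentile.

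**Figure D2:**
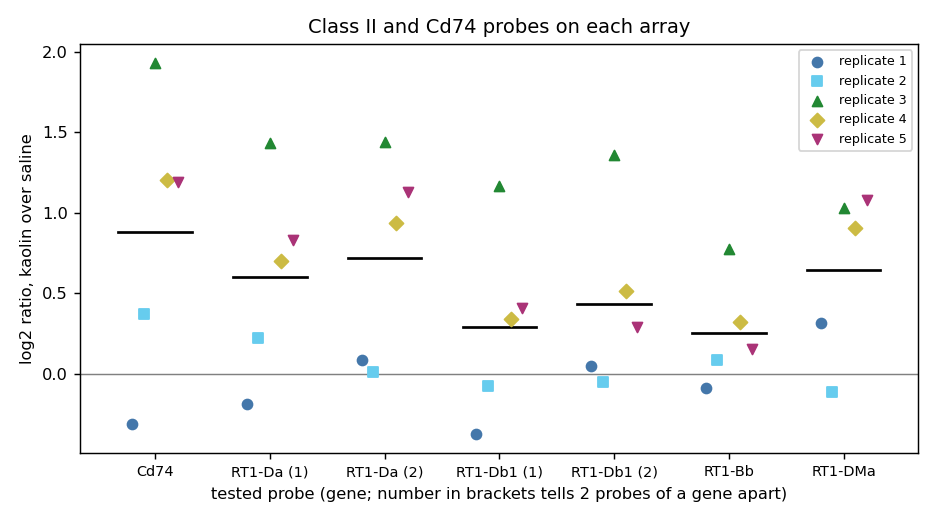
Log2 ratio of kaolin over saline (y axis) of the 7 tested probes (x axis) on 5 arrays (symbols), with the mean as a bar; RT1-Da (1) is A_44_P367688, RT1-Da (2) A_44_P991532, RT1-Db1 (1) A_44_P130513 and RT1-Db1 (2) A_44_P130516. Replicates 3, 4 and 5 are above 0 at each probe, while replicates 1 and 2 lie between -0.37 and 0.37.

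The other 5 probes were dim. Ciita (file name C2ta), at chr10:5087172-5087231 on the minus strand of rn4, was not well above background in either channel on any array. Its measured ratios averaged -0.04 ± 0.22 (SD, n = 5), which carries no order at that signal. RT1-Ba, the alpha chain of RT1-B, had 2 probes, 1 at chr20:4700973-4701032 (plus strand); between them, 1 kaolin spot of 10 and no saline spot was well above background. The third RT1-Db1 probe was not well above background on any array. The second RT1-Bb probe (A_44_P552452) was well above background in 2 kaolin samples and 1 saline sample. Its kaolin levels were 6.44, 6.07, 8.12, 6.03 and 6.04, against saline levels of 6.02, 5.98, 6.86, 5.97 and 6.05. On replicate 3 both samples stood apart from the other samples of their group at this probe, with a log2 ratio of 1.27. RT1-DMb, the partner of RT1-DMa, and RT1-Ba, the partner of RT1-Bb, therefore gave no tested value beside their chains.

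None of the 7 tested probes passed an adjusted p of 0.05 in limma, as in 0% of all 29106 tested probes, whose smallest adjusted p was 0.243. The adjustment gave that smallest value to many probes alike. In the order of unadjusted p in limma, RT1-DMa ranked 1129, the brighter RT1-Da probe 1732 and Cd74 2599. At an unadjusted p under 0.05, 4 of the 7 were higher in kaolin (Cd74, both RT1-Da probes and RT1-DMa), against 8.82% of tested probes. The dimmer RT1-Da probe met the signal filter through its kaolin samples; among probes well above background in all 10 samples, 3 of 6 were higher in kaolin at that level, against 8.73%. All 5 tested genes had a mean ratio above 0, against 49.2% of tested probes, and 1 of 5, RT1-Da, was above 0 on every array, against 6.23%. These 5 genes passed a filter on signal in either channel, and the 2 others with a probe had too little signal to test. The median over the 5 genes was -0.09, 0.01, 1.17, 0.91 and 1.08 on replicates 1 to 5, a mean of 0.62 ± 0.61 (SD, n = 5). The median over all tested probes was within 0.01 of 0 on each array, and a single probe's ratio had a median SD of 0.212 over the arrays. The genes were thus split by array, with replicates 1 and 2 near 0 and replicates 3, 4 and 5 near 1 unit or above for the median.

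With array weights estimated by limma, 3 of the 7 probes passed: Cd74 at 1.11 (adjusted p = 0.0440), the brighter RT1-Da probe at 0.90 (adjusted p = 0.0422) and RT1-DMa at 0.80 (adjusted p = 0.0422). Higher in kaolin under that setting were 5.41% of all tested probes. Without replicate 2, RT1-DMa passed alone, at 0.84 (limma adjusted p = 0.0421), with 2.46% of tested probes higher in kaolin. Over the other settings tried, and without replicate 1, 3, 4 or 5, no member probe passed.

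Cd74 was set against 4 genes that microglia and macrophages express widely, Aif1 (the calcium-binding protein Iba1), Itgam (the integrin CD11b), Tyrobp (a signalling adaptor) and Cd68 (a lysosomal glycoprotein). Their ratios ran lower on replicates 1 and 2 and higher on replicates 3, 4 and 5, as those of Cd74 did. Aif1, for one, was at 0.61, -0.05, 2.10, 1.35 and 1.57. The Cd74 ratio minus the Aif1 ratio was -0.92, 0.42, -0.17, -0.14 and -0.38, with a mean of -0.24 ± 0.48 (SD, n = 5; exact two-sided sign-flip permutation p = 0.375). The mean difference was 0.23 ± 0.42 from Itgam (exact p = 0.3125), -0.65 ± 0.55 from Tyrobp (exact p = 0.125) and -0.40 ± 0.59 from Cd68 (exact p = 0.1875). Adjusted over these 4 comparisons each exact p was 0.375. Cd74 was below Aif1, Tyrobp and Cd68 on 4 of 5 arrays each, the exception being replicate 2 in all 3 cases. Tyrobp has a second tested probe (A_44_P526676), well above background in all 10 samples, and there the direction turned. Its ratios were 0.09, -0.16, 0.80, 0.46 and 0.44, a mean of 0.33 ± 0.37. Cd74 minus this probe was 0.55 ± 0.58 (SD, n = 5, exact permutation p = 0.125), above 0 on 4 of 5 arrays. Background correction draws ratios of dim probes towards 0. Mean log2 intensity was 6.71 at this probe and 11.43 at the brighter Tyrobp probe. Cd74 was itself at 8.20, against 12.13 for Aif1, 9.02 for Cd68 and 7.58 for Itgam. With an offset of 0 in that correction, Cd74 minus Aif1 was -0.10, minus the brighter Tyrobp probe -0.52, minus Cd68 -0.32 and minus Itgam 0.21. The part of dim signal in these differences was not tested. No difference passed its test, and p-values that miss the threshold do not show that the ratios were alike.

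**Figure D3:**
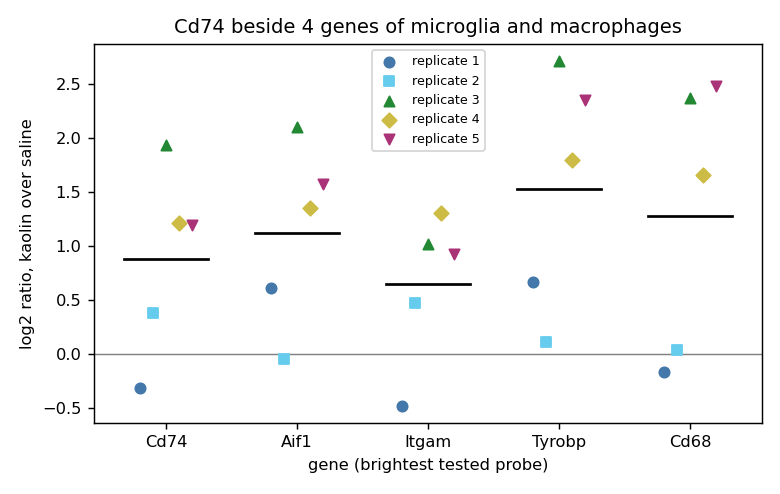
Log2 ratio of kaolin over saline (y axis) of Cd74 and of 4 genes of microglia and macrophages (x axis) on 5 arrays (symbols), with the mean as a bar. At the brightest probe of each gene, Tyrobp has the highest mean (1.53) and Itgam the lowest (0.65), with Cd74 (0.88) between them; the second Tyrobp probe, with a mean of 0.33, is not drawn.

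Among 11943 genes outside the lists used here, those whose 5 ratios lay nearest to the ratios of Cd74 were found by the root-mean-square difference over the 5 arrays, a description with no test. The nearest were P2ry6, a receptor for uridine diphosphate (0.19 log2 units), Ifi44, an interferon-induced gene (0.21), and Fermt3, an integrin activator of blood cells (0.24). Fgfrl1, a fibroblast growth factor receptor-like protein (0.25), Skap2, an adaptor of immune cells (0.25), and Cfp, the complement regulator properdin (0.26), came next. The median over all candidates was 1.17. P2ry6 had ratios of 0.05, 0.20, 2.04, 1.27 and 1.13, which differ from Cd74 most on replicate 1. Among the members, RT1-Da was at 0.35, RT1-DMa at 0.56, RT1-Db1 at 0.66 and RT1-Bb at 0.82 from Cd74.

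The DNA-binding proteins that hold Ciita at class II promoters were all tested (7 of 7), and in limma none passed in either direction, with 2 at an unadjusted p under 0.05 (18.1% of all tested probes in either direction). Their median of mean ratios was 0.09, against -0.003 for all tested probes. Of their means 6 of 7 were above 0, against 49.2% of all tested probes. Rfxank, a subunit of RFX, was at 0.28 and Creb1 at 0.21, while Rfx5 and Rfxap, the other RFX subunits, were at 0.02 and -0.02. The NF-Y subunits Nfya, Nfyb and Nfyc were at 0.14, 0.05 and 0.09, and the means of the 3 tested Nfyb probes ranged from -0.36 to 0.13. All 7 means were below that of Cd74.

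Interferon-gamma is the best known inducer of Ciita, acting through its receptor, the kinases Jak1 and Jak2 and factors that include Irf1. Of 10 genes of that axis 8 were tested, and in limma none passed in either direction. An unadjusted p under 0.05 was found for 4 of 8, against 18.1% of all tested probes. Their median was 0.24, with 6 of 8 means above 0, against 49.2% of all tested probes. Ifng itself was not well above background in either channel on any array. Irf1 was at 0.11, -0.04, 0.74, 0.52 and 0.55, a mean of 0.38 ± 0.33 (SD, n = 5; limma adjusted p = 0.243). It thus had the same 3 arrays above the other 2 as Cd74. Ifngr1, a receptor chain, averaged 0.40, while Jak2 averaged -0.01 and Irf2 -0.10.

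Endosomal proteins that trim Cd74 and prepare peptides for class II were tested for 8 of 8 genes, and in limma none passed in either direction. An unadjusted p under 0.05 was found for 5 of 8, against 18.1% of all tested probes. All 8 means were above 0, against 49.2% of all tested probes, with a median of 0.48. Ifi30, the thiol reductase that unfolds antigens, was the highest, at -0.07, -0.15, 1.73, 1.23 and 1.63, a mean of 0.87 ± 0.92 (SD, n = 5; limma adjusted p = 0.246). Ctss, the cathepsin that makes the last cut in Cd74 in many antigen-presenting cells, was at 0.62 ± 0.59, and the endopeptidase Lgmn at 0.63 ± 0.73. Ctsh, Ctsd, Ctsl and Ctsb averaged 0.52, 0.44, 0.35 and 0.26. Cst3, which inhibits such cathepsins, averaged 0.15 (0.42 at its other probe). The array medians of this group were -0.07, -0.06, 0.92, 0.51 and 0.98, with replicates 1 and 2 again the low ones.

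Of genes for turnover and trafficking of class II, 5 were tested and in limma none passed. An unadjusted p under 0.05 was found for 3 of 5, against 18.1% of all tested probes. Marchf1, the ubiquitin ligase that sends surface class II to lysosomes, was at -0.41, 0.07, -0.82, -0.65 and 0.07, a mean of -0.35 ± 0.41 (SD, n = 5; limma adjusted p = 0.281). Its lowest ratios were on replicates 3 and 4, 2 of the 3 arrays with the higher Cd74 ratios, but replicate 5, the third of them, was at 0.07. Cd83, which opposes Marchf1, averaged 0.70 ± 0.57, and its ratio on replicate 1 was 1.01, unlike Cd74. The tetraspanins Cd63, Cd9 and Cd82, found in compartments with class II, averaged 0.75, 0.62 and 0.30.

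For Cd74 as a receptor, 5 partners were tested and in limma none passed. An unadjusted p under 0.05 was found for 3 of 5, against 18.1% of all tested probes. Mif, the cytokine that binds Cd74, averaged -0.06 ± 0.09, and its relative Ddt 0.37 ± 0.26. Cd44, the coreceptor that signals for Cd74, was at 0.23, -0.48, 2.33, 1.84 and 2.35, a mean of 1.25 ± 1.30 (SD, n = 5; limma adjusted p = 0.245). Its ratios on replicates 3, 4 and 5 were above those of Cd74. The chemokine receptors Cxcr4 and Ackr3, which also bind Mif, averaged 0.41 and -0.13. Costimulatory and adhesion genes, which T cells need beside class II, gave 3 tested genes, and in limma none passed. Cd40 averaged 0.65 (0.27 at its other probe) and Icam1 0.59, both with an unadjusted p under 0.05, while Cd80 and Pdcd1lg2 were not well above background. Cd86 was well above background in 3 kaolin samples and in no saline sample, so that its saline level is a bound and neither a fold nor its p is counted.

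**Figure D4:**
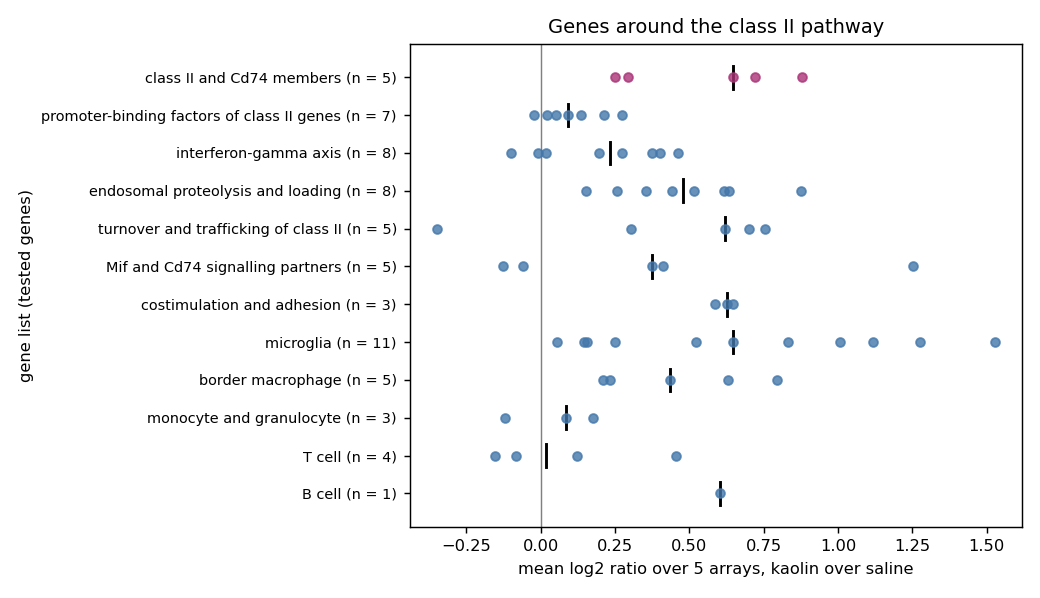
Mean log2 ratio of kaolin over saline over 5 arrays (x axis) of each tested gene (points) in the class II and Cd74 set, in pathway lists and in lists of cell type markers (y axis), with the list median as a bar. The class II and Cd74 set spans 0.25 to 0.88 and the promoter-binding factors -0.02 to 0.28. The costimulation and adhesion points include Cd86 (0.63), which is not counted in the text because its saline level is a bound. The bar of that list lies at the Cd86 value.

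Cell type markers were read beside these values. All 11 microglial markers were tested and none passed in limma. An unadjusted p under 0.05 was found for 7 of 11, against 18.1% of all tested probes. Their means were all above 0 (median 0.65), against 49.2% of all tested probes. Tyrobp, Cd68 and Aif1 were the highest at 1.53, 1.27 and 1.12. Tmem119 and P2ry12, which mark resident microglia, were the lowest at 0.15 and 0.06. The second Tyrobp probe was at 0.33. Csf1r also had probes that differed, at 0.83 for the brighter and 0.12 for the other. The summed linear level of the 11 probes spanned 27785 to 69736 in kaolin samples and 26868 to 29358 in saline samples. Their array medians were -0.15, 0.07, 1.42, 0.75 and 0.93, high on the same 3 arrays as the class II median, and their part in it was not tested.

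Border macrophage markers had 5 of 5 tested means above 0 (median 0.43), against 49.2% of all tested probes. In limma none passed, and 1 of 5 had an unadjusted p under 0.05, against 18.1% of all tested probes. That was Lyve1, with a mean of 0.43 (0.195 at its other probe). Pf4 averaged 0.80, Mrc1 0.63 (0.43 at its other probe) and F13a1 0.21. Summed levels were 1118 to 2984 in kaolin samples and 1111 to 1355 in saline samples. The 5 include Cd163 (mean 0.23), which met the signal filter through its kaolin samples, with 3 kaolin and 2 saline samples well above background. The part of border macrophages in the class II values was not tested. Among T cell markers 4 of 10 with a probe were tested (median 0.02, summed levels 1027 to 1332 in kaolin samples and 915 to 1209 in saline samples). In limma none passed, and 1 of the 4 had an unadjusted p under 0.05, against 18.1% of all tested probes. That was Zap70, a kinase of the T cell receptor, at 0.44, -0.16, 0.96, 0.54 and 0.49, a mean of 0.45. Cd3g, well above background in 3 kaolin and 2 saline samples, averaged 0.12. Cd3d, well above background in all 10 samples, averaged -0.08 and Ctla4 -0.15. Cd4 was well above background in 2 kaolin samples and no saline sample, too few to test, while Cd3e and Cd2 were not on any array. The part of T cells in the class II values was not tested. Of B cell markers Blnk alone was tested, at 0.60 (levels of 217 to 661 in kaolin samples and 226 to 260 in saline samples), and Ms4a1 was not well above background. None of the 3 dendritic cell markers with a probe was tested. Monocyte and granulocyte markers had a median of 0.09 over 3 genes, with summed levels of 239 to 389 in kaolin samples and 244 to 375 in saline samples.

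Astrocyte markers had 3 of 6 tested means above 0 (median 0.18), near the 49.2% of all tested probes. Their summed levels were 65608 to 108980 in kaolin samples and 74378 to 85885 in saline samples. Their leading gene Gfap, the intermediate filament of astrocytes, was at 0.39, 0.60, 2.81, 2.32 and 2.95, also higher on replicates 3, 4 and 5, and its part in the class II values was not tested. Endothelial and pericyte markers lay between -0.10 and 0.07 over 6 genes, with summed levels of 10532 to 15100 in kaolin samples and 11860 to 14184 in saline samples.

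The labelled tissue was checked with 7 cortical neuron markers, each well above background in all 10 samples (median ratio -0.17). Choroid plexus markers differed between samples, with summed levels of 1072 to 3677 in kaolin cortex and 1484 to 53907 in saline cortex. Their leading gene Ttr was at -4.11, -1.89, -4.29, -3.85 and -0.12. The Cd74 ratios on the same arrays were -0.31, 0.37, 1.93, 1.21 and 1.19. Meningeal markers had a median of 0.14 and array medians of -0.36, -0.06, 0.81, -0.03 and 0.59, with replicates 3 and 5 the highest. The part of either tissue in the class II values was not tested.

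Replicates 1 to 4 lay on 1 slide and replicate 5 on another. The 4 arrays of the first slide held both low and high class II ratios, and without replicate 5 the Cd74 mean was 0.80 and the RT1-DMa mean 0.54. A random block for the slide left each member's adjusted p at 0.125 or above in limma.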

How the data were processed

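Per the file headers, scans were read with Agilent Feature Extraction 10.1.1.1. The deposited files give raw intensity per spot (mean signal and local background), and intensity that the software had background-subtracted and dye-normalized, per the file headers. Its log10 ratio is Cy5 over Cy3, per the file headers. Deposited flags (0 or 1) mark background, saturated and outlier spots. The authors' series matrix holds log2 ratios; the sources used here do not give their normalization. Its direction was settled as Cy3 over Cy5, since each column ran opposite to the log10 ratio of its array (correlation over probes -1.00 to -0.978; column medians 0.02, -0.05, -0.02, 0.09 and -0.10).

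Outlier spots (86 to 147 per array) and control spots had weight 0. Signals were corrected with normexp (offset 50), which draws ratios of dim probes towards 0, and normalized within arrays by loess; levels were then set with Aquantile. No spot was saturated, and 27951 to 29379 probes were well above background in kaolin samples and 27365 to 28923 in saline samples. Only 5 arrays limit the precision. Of 41012 probes 29106 were tested with lmFit and eBayes in limma 3.58.1 (R 4.3.3, with version 1.17.8 of data.table), testing the mean ratio against 0 in both directions, and p-values were adjusted by Benjamini-Hochberg. The fit was tested on simulated data. Symbols came by accession for 10768 probes, by another listed accession for 286, by symbol for 4993 and by older symbol for 3339, and 21626 kept the file's name. Probe positions came from the deposited files (rn4), promoters from a RefSeq annotation of GRCr8.

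Members and lists were chosen with earlier results of these data known. Each member probe is named; other genes are read by their brightest tested probe. Genes of lists of 8 or fewer could be named, in longer lists the 3 highest and 2 lowest means. Besides these, Aif1, Itgam, Tyrobp and Cd68 and the 6 genes nearest to Cd74 were named. Cd3e, Cd2 and Ifng, none well above background, were named after their values were seen. The same holds for Cd4, well above background in 2 kaolin samples, and for Csf1r, whose 2 tested probes differed. Alternatives changed background correction, normalization, probe filter, array weights, slide block, probe per gene and the arrays included. A few genes of the lists are not reported here.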

Additional observations from a re-analysis of the deposited data

How the results depend on the processing

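The count of class II and Cd74 probes past the threshold in limma was 0, and 3 with array weights. Leaving out 1 array gave 0 to 1, the 1 being RT1-DMa without replicate 2. It was 0 under each other setting tried: other background corrections, median centring, processed signals, the software's log ratios, the authors' series matrix, both probe filters and the slide block (correlation between arrays of a slide -0.0864). The mean ratios of Cd74, RT1-Da, RT1-Db1, RT1-Bb and RT1-DMa kept their sign under each of these; Ciita and RT1-Ba were not followed through them. The median over the genes was 0.62 and lay between 0.48 and 0.79 with 1 array left out; without the filter on dim probes, which adds Ciita and RT1-Ba, it was 0.37. The cause of the passes was not tested. With 1 array left out, Cd74 minus Aif1 ranged from -0.40 to -0.07 (without replicate 1), minus Itgam from 0.06 (without replicate 3) to 0.31, minus Tyrobp from -0.87 (without replicate 2) to -0.52 and minus Cd68 from -0.58 to -0.17 (without replicate 5). With processed signals the difference from Aif1 was -0.05. At the other Tyrobp probe, an alternative chosen after seeing the data, the difference was 0.55, against -0.65. At the brighter probes the difference between RT1-Da and RT1-Db1 ranged from 0.36 to 0.59. At the other pairs of probes it was lower, at 0.29, 0.31 and 0.17. With 4 arrays the smallest exact two-sided p is 0.125, so those tests say nothing about stability. Each test already pairs the kaolin and saline samples of an array. Dim signal limits Ciita, RT1-Ba and the third RT1-Db1 probe, and the dyes were never exchanged.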

Other observations

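The array carried 4 more probes described as class II genes without a member's name, found after the files had been read. A_43_P16181, described as an RT1-D beta chain of haplotype k, had log2 ratios of 0.25, -0.13, 0.83, 0.44 and 0.29 on replicates 1 to 5, a mean of 0.33 ± 0.35 (SD, n = 5; limma adjusted p = 0.260). A_44_P158837 was at -0.28, -0.01, 0.69, 0.39 and 0.53, a mean of 0.26 ± 0.40 (limma adjusted p = 0.360). On both, replicate 3 was the highest array, as for the RT1-Db1 probes. The 2 others were not well above background on any array. Of the genes for the DO molecule, which restrains DM, RT1-DOa was not well above background on any array and RT1-DOb was so in 1 kaolin sample.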
